A study of Mus musculus with 3 samples.

Results

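Skeletal muscle sarcomere and calcium genes were examined in RNA-seq libraries of the suprarenal aorta. They are 7 genes (*Acta1*, *Myh1*, *Myh4*, *Myl1*, *Ckm*, *Atp2a1*, and *Cacna1s*) out of 1237 genes listed in the deposited comparisons. The genes were chosen by name from measured values in these same data, as muscle genes that stood lower in the AngII libraries than in Saline, so their direction is a description and supports nothing by itself. All 7 were found in AngII No AAA vs. Saline, 6 of them in AngII AAA vs. Saline, and none in AngII AAA vs. AngII No AAA.

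All animals were male apoE null C57BL/6 mice (C57BL/6J per the study's methods), 12 weeks old at surgery, with a pump that infused angiotensin II (AngII) or saline. In the AngII AAA cohort, tissue was taken within 24 hours of diagnosis of a dissecting abdominal aortic aneurysm (AAA). The AngII No AAA cohort received AngII without such a lesion by day 10, and the Saline cohort was collected on day 10. Each cohort was 1 library made from pooled RNA of several animals, so there was no replicate error, no test was possible, and every difference below is a difference between single pools. The apoE deletion, which raises plasma lipids and permits dissecting lesions under AngII, was shared by all cohorts. The tissue was the distal part of the suprarenal aorta, and in AngII AAA it included the aneurysm. Diagnosis came on different days in different animals, so time on AngII differed between AngII AAA and AngII No AAA, and its part and that of the lesion cannot be told apart. Below, a library goes by the name of its cohort.

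The labels give 35000000 to 43000000 reads per library. Levels are in FPKM, the fragments of a transcript divided by its length and by the mapped total of its library, and the mapped totals are not given in the sources used here, so counts were not computed and no counting interval is given. The authors kept a gene where its p-value, without adjustment, was under 0.05, which left 564 rows for AngII No AAA vs. Saline. It left 715 rows when AngII AAA was set against Saline and 600 when it was set against AngII No AAA. A gene enters such a list only if its libraries differ, so how many of the 7 genes are listed, and their median, cannot be taken as support for a difference. The same library carried values that were a fixed multiple apart from list to list (1.09-fold for Saline), so ratios were taken within a list.

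Striated muscle contracts when myosin heads of the thick filament pull on actin of the thin filament inside the sarcomere. In skeletal fibers a voltage sensor in the membrane opens the calcium store, calcium frees the actin sites, and a calcium pump then refills the store, while creatine kinase keeps ATP supplied. Vascular smooth muscle of the aortic media uses its own actin and myosin genes and has no sarcomeres. Of the genes studied here, *Myh1*, *Myh4*, *Myl1*, and *Atp2a1* are mainly those of fast fibers, whereas *Acta1*, *Ckm*, and *Cacna1s* serve fast and slow fibers alike. *Acta1* encodes skeletal alpha-actin, *Myh1* and *Myh4* fast myosin heavy chains, *Myl1* the essential light chain of fast myosin, *Ckm* the muscle creatine kinase, *Atp2a1* the fast-fiber calcium pump of the sarcoplasmic reticulum, and *Cacna1s* the voltage-sensing subunit of the skeletal L-type calcium channel.

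In the coordinates of the files (build mm9), *Myh1* (chromosome 11, 67013615 to 67038077) and *Myh4* (chromosome 11, 67051313 to 67073949) are neighbors, with 13236 bases between the listed loci. *Ckm* (chromosome 7, 19996442 to 20006932) and *Atp2a1* (chromosome 7, 133572280 to 133606587) share a chromosome but lie far apart, as do *Myl1* (chromosome 1, 66970869 to 66991630) and *Cacna1s* (chromosome 1, 137949477 to 138016399). *Acta1* lies on chromosome 8 from 126415657 to 126418675. Each is a locus of a whole gene, introns included.

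The letters around the starts of these genes were read from RefSeq promoters (build GRCm38.p6, 250 bases before to 50 after the annotated start), which matched 7 of 7 genes. Their shared direction was how they were chosen, and common control of the genes was not tested. Motifs of muscle regulators were sought on both strands: the E-box (CANNTG) of the MyoD family, the CArG box of serum response factor, the MEF2 site, and the TATA box. *Acta1* and the *Myh1* and *Myh4* pair are shown, since they held every CArG box and MEF2 site found. Capitals mark matches of any of these motifs.
*Acta1*: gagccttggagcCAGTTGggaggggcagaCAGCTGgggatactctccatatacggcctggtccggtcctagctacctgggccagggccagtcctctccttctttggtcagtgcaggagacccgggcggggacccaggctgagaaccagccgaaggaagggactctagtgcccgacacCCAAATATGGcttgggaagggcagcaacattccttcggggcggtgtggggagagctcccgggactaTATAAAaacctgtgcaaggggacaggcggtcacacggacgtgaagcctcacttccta
*Myh1*: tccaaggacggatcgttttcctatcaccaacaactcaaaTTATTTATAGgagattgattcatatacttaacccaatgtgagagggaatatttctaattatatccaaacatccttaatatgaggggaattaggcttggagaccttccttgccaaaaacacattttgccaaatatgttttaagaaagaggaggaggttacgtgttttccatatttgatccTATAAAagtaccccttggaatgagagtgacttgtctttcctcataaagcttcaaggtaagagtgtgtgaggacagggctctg
*Myh4*: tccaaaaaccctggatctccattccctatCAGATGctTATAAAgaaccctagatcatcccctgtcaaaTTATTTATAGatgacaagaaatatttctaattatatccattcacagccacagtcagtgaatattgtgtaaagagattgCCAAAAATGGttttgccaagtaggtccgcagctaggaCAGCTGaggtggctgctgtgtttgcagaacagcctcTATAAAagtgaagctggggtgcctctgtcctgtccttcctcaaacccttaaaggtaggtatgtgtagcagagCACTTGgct

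These windows lie on chromosome 8 from 123894726 to 123895025 (minus strand), on chromosome 11 from 67199852 to 67200151 (plus strand), and on chromosome 11 from 67237562 to 67237861 (plus strand), respectively. An E-box was present in 6 of the 7 windows, but also in 72.3% of all 32851 promoters, so its presence sets these genes little apart. A CArG box was present in 2 windows (*Acta1* and *Myh4*), compared with 1.63% of all promoters, and a MEF2 site in 2 (*Myh1* and *Myh4*), compared with 3.19%. The TATA box (TATAAA) was found in 4 windows and in 13.6% of all promoters, and the MEF2 sites of both myosin genes each hold one of these TATA matches. In *Myh1* the MEF2 site spans positions -211 to -202 from the start, and in *Myh4* positions -182 to -173. Both sites have the same letters (TTATTTATAG) and belong to neighboring, similar genes, so they cannot be counted as 2 independent matches. The windows of *Ckm*, *Atp2a1*, and *Cacna1s* held E-boxes as their only matches, and that of *Myl1* an E-box and a TATA match. The TATA match of *Myl1* was on the strand opposite to the gene (TTTATA in its own reading direction). A match is a run of letters, and binding was not measured.

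**Figure D1:**
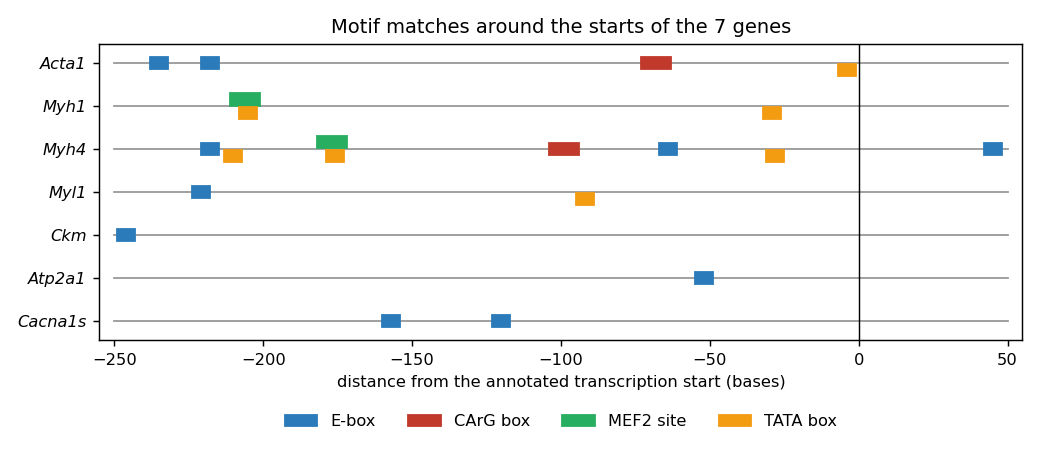
Positions of motif matches around the annotated starts of the 7 genes, in bases from the start at 0, with 1 line per gene and 1 color per motif. E-boxes occur in 6 of 7 windows, and CArG boxes only in those of *Acta1* and *Myh4*.

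The myosin genes are close copies, which bears on how well their FPKM values can be told apart. Reads were 61 bases long per the study's methods, so every 61-base window of the longest coding transcript of each gene (GENCODE M21) was looked up in all other genes, in both orientations. For *Myh1*, 27.1% of 6021 windows occurred in another gene, including 16.0% in *Myh2*, 7.66% in *Myh4*, 7.41% in *Myh8*, and 6.63% in *Myhas*. The total counts any other annotated gene, not the heavy chain copies alone. For *Myh4*, 14.5% of 5956 windows did, with 7.74% in *Myh1*. The longest stretch that *Myh1* and *Myh4* share lies in their coding parts and is 161 bases long, at transcript bases 3396 to 3556 of *Myh1* and 3331 to 3491 of *Myh4*. It is printed in capitals, with 15 bases of each gene on either side in lower case, to show where a read could not be assigned.
*Myh1*: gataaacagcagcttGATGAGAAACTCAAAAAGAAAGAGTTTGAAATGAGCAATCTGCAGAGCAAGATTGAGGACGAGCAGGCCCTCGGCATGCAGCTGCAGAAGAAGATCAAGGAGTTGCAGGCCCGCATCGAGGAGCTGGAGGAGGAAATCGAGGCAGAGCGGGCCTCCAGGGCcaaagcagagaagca
*Myh4*: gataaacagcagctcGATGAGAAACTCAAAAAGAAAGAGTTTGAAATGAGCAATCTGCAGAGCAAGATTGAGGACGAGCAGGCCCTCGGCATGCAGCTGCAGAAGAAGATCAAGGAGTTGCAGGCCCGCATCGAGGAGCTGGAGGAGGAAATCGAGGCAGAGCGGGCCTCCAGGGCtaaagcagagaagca

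Most windows of both genes were still their own (4392 for *Myh1* and 5093 for *Myh4*). *Acta1* shared 1.44% of its windows with other genes, chiefly *Gm47692* and *Actb*, and no window with *Acta2*, the abundant smooth muscle actin of this tissue. For the other genes, the shared windows fell in a single other annotated gene each: *Rabep2* for *Atp2a1* (17.3%), *Gm37759* for *Cacna1s* (15.7%), *A930016O22Rik* for *Ckm* (10.5%), and the pseudogene *Mylf-ps* for *Myl1* (20.5%). How the authors' tools divided such reads is not given in the sources used here, and the split between the myosin genes is therefore uncertain.

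The first comparison, AngII No AAA vs. Saline, asks how the AngII-infused aorta without a lesion differed from the control. All 7 genes were lower in AngII No AAA, by 2.93-fold to 7.49-fold, with a median log2 fold change of -2.50. Of all 564 listed rows, 36.5% were lower in that library, and their median log2 fold change was -1.21 where the ratio was finite. By at least 4-fold, 5 of the 7 genes were lower, against 4.26% of all listed rows, but the genes were picked on this very contrast, so nothing is read from that difference.

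Among the sarcomere genes, *Acta1* had the highest level, at 43.8 FPKM in AngII No AAA against 247 FPKM in Saline, a log2 fold change of -2.50. *Myh1* was at 7.30 and 54.7 FPKM (log2 fold change -2.91), the largest difference of the 7 genes. *Myh4* was at 9.08 and 45.7 FPKM (log2 fold change -2.33). The heavy chains stood in opposite order: *Myh1* was 1.20 times as high as *Myh4* in Saline and 0.804 times as high in AngII No AAA. *Myl1*, the light chain that pairs with both, was at 40.1 and 117 FPKM, a log2 fold change of -1.55, the smallest difference of the 7.

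*Ckm*, the creatine kinase, was at 15.7 FPKM in AngII No AAA against 113 FPKM in Saline (log2 fold change -2.85). The calcium pump gene *Atp2a1* was at 13.3 and 76.1 FPKM, with a log2 fold change of -2.52. *Cacna1s*, the voltage sensor, had the lowest level of the 7 genes, at 1.74 and 5.56 FPKM (log2 fold change -1.67). Per length, *Atp2a1* was 13.7 times as high as *Cacna1s* in Saline and 7.65 times as high in AngII No AAA. The pump and the channel thus stood closer together in AngII No AAA, and the ratio of *Ckm* to *Atp2a1* was 1.49 in Saline and 1.18 in AngII No AAA. Summed over the 7 genes, the level was 131 FPKM in AngII No AAA against 660 FPKM in Saline.

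**Figure D2:**
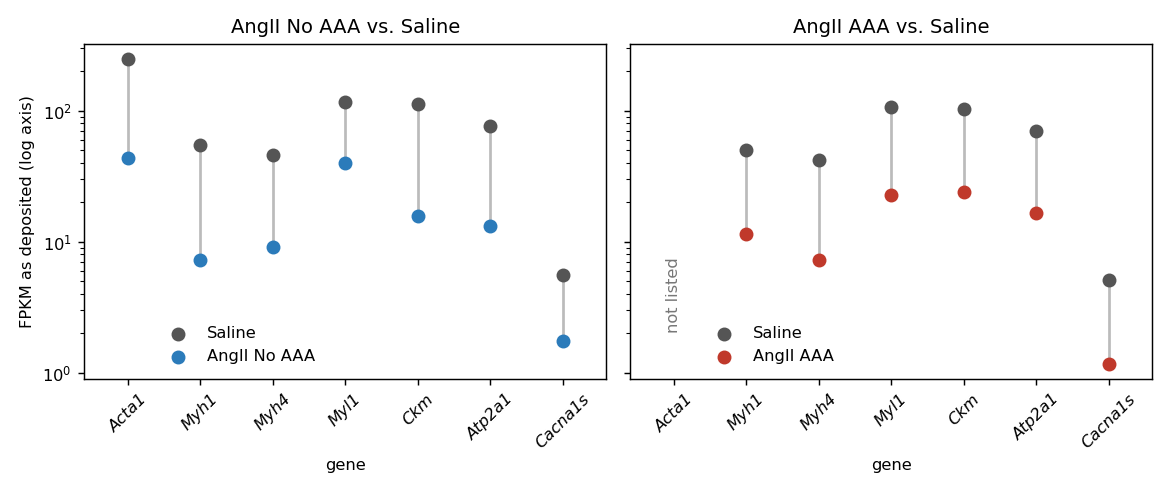
FPKM as deposited (log axis) of the 7 genes in AngII No AAA vs. Saline (left) and AngII AAA vs. Saline (right), with 1 point per library and a line joining the 2 libraries of a gene. Each listed gene was lower in the AngII library, from 1.18 FPKM for *Cacna1s* in AngII AAA to 247 FPKM for *Acta1* in Saline, and *Acta1* is not listed on the right.

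Across the 201 genes listed as lower with a finite ratio, *Myh1* ranked 2nd by size of difference, *Ckm* 4th, *Atp2a1* 9th, *Acta1* 11th, and *Myh4* 13th. *Cacna1s* ranked 36th and *Myl1* 48th. Only *Klhl41*, a muscle Kelch protein that binds nebulin, stood above *Myh1*, at 0.893 and 6.77 FPKM. Of the 19 genes that were lower by at least 4-fold with a finite ratio, 15 belonged to the skeletal muscle lists used here, among them 5 of the 7 genes picked on this contrast. Skeletal muscle genes filled 31 of all 564 rows and 31 of the 206 lower rows, and as the lists were drawn up with earlier results known, these counts are a description. A further 5 genes, all outside those lists, had a value of 0 in AngII No AAA.

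**Figure D3:**
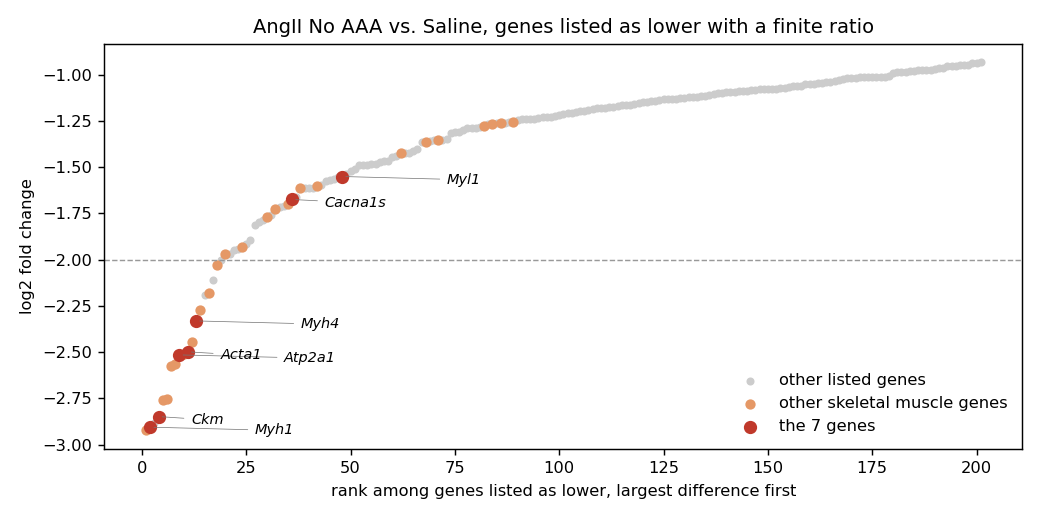
Log2 fold change of the 201 genes listed as lower in AngII No AAA vs. Saline with a finite ratio, ordered by size of difference. The 7 genes lie between ranks 2 and 48, and the dashed line marks a 4-fold difference, past which 15 of 19 genes are skeletal muscle genes, 5 of them from the 7 genes picked on this contrast, compared with 31 of all 564 listed rows.

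The wider skeletal muscle program was read from 5 lists with 94 genes, the 7 genes included. In AngII No AAA vs. Saline, 31 had values, all lower in AngII No AAA, with a median log2 fold change of -1.97. Without the 7 genes, 24 of 87 were listed, with a median of -1.85. Since only listed genes can be seen, the remaining genes of the lists have no value here.

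For the thick filament and M band, 7 of 19 genes were listed. Apart from the 3 genes described above, these were *Myh2* (3.28 FPKM in AngII No AAA against 14.8 FPKM in Saline), a fast heavy chain of oxidative fibers, and *Myh7* (1.87 and 4.81 FPKM), the heavy chain of slow fibers and heart ventricle. The myosin-binding proteins *Mybpc1* and *Mybpc2* were at 2.99 and 9.70 FPKM and at 5.25 and 14.1 FPKM, in the same order of libraries. In Saline, the fast heavy chains *Myh1* and *Myh4* therefore stood well above *Myh2* and *Myh7* per length, within the limits that shared reads set.

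For the thin filament and Z disc, 12 of 25 genes were listed, with a median log2 fold change of -2.15. The fast troponin T gene *Tnnt3* was at 25.5 FPKM in AngII No AAA against 139 FPKM in Saline, and the Z-disc gene *Tcap* at 21.0 and 102 FPKM. The fast troponins *Tnni2* (10.9 and 41.5 FPKM) and *Tnnc2* (18.3 and 46.9 FPKM) had smaller differences, with log2 fold changes of -1.93 and -1.36. The differences of *Myot*, a Z-disc protein, and *Ttn*, the giant titin, were larger, with log2 fold changes of -2.76 and -2.51. Troponin subunits, which work as a complex, thus differed among themselves by more than 1 log2 unit.

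For calcium handling, 4 of 24 genes were listed. Besides *Atp2a1* and *Cacna1s*, *Cacnb1*, the beta subunit of the same channel, was at 11.3 FPKM in AngII No AAA against 27.4 FPKM in Saline. *Ryr1*, the release channel of the store, was at 3.63 and 8.67 FPKM. Their log2 fold changes of -1.28 and -1.26 were closer to that of *Cacna1s* than to that of *Atp2a1*.

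For energy supply, 8 of 18 genes were listed, with a median log2 fold change of -2.27. Myoglobin (*Mb*), the oxygen store of muscle, was at 32.8 FPKM in AngII No AAA against 221 FPKM in Saline. *Ckmt2*, the mitochondrial creatine kinase, was at 1.83 and 10.9 FPKM, and *Cox6a2*, a muscle subunit of cytochrome c oxidase, at 14.4 and 85.5 FPKM. These had log2 fold changes of -2.75, -2.58, and -2.57, next to -2.85 for *Ckm*. The glycolytic genes *Pgam2* and *Pygm* had log2 fold changes of -1.97 and -1.77. None of the 8 genes of myogenic regulation, *Myod1*, *Myog*, and *Pax7* among them, was listed in any comparison.

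**Figure D4:**
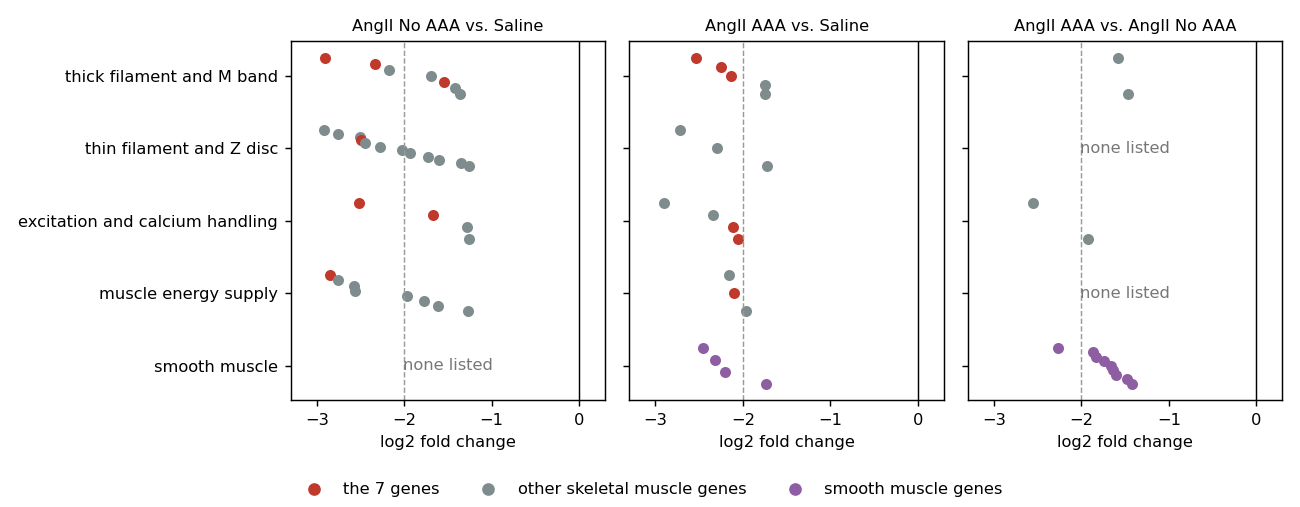
Log2 fold change of each listed gene of the skeletal muscle lists and the smooth muscle list in the 3 comparisons, with 1 point per gene and the 7 genes in red. The dashed line marks a 4-fold difference. Skeletal muscle genes are listed mainly against Saline, whereas no smooth muscle gene is listed for AngII No AAA vs. Saline, which holds no finite difference under 1.91-fold.

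AngII AAA vs. Saline asks how the freshly dissected aorta differed from the control. The 6 listed genes were lower in AngII AAA, by 4.17-fold to 5.78-fold, with a median log2 fold change of -2.12. Lower rows made up 15.4% of all 715 rows of this list, with a median log2 fold change of -2.06 where finite. All 6 were lower by at least 4-fold, against 9.23% of all rows. This list held no gene with a difference under 2.93-fold, and the 6 genes ranked 12th to 45th among its 92 lower genes with a finite ratio. Both comparisons rest on the same Saline library, so the lower values against Saline in both comparisons are not independent of each other.

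*Myh4* had the largest difference, at 7.23 FPKM in AngII AAA against 41.8 FPKM in Saline (log2 fold change -2.53). *Myl1* was at 22.6 and 107 FPKM (log2 fold change -2.25), and *Myh1* at 11.4 and 50.1 FPKM (log2 fold change -2.13). The order of the heavy chains was that of Saline, with *Myh1* 1.58 times as high as *Myh4*. *Ckm* was at 24.1 and 103 FPKM, *Atp2a1* at 16.7 and 69.6 FPKM, and *Cacna1s* at 1.18 and 5.08 FPKM. The log2 fold changes of these 3 genes lay close together, from -2.11 to -2.06, and *Atp2a1* was 14.2 times as high as *Cacna1s*, near the 13.7 of Saline. Summed over the 6 genes, the level was 83.1 FPKM in AngII AAA against 377 FPKM in Saline. *Acta1* was not listed, so its level in AngII AAA could not be read.

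Of the 94 skeletal muscle genes, 15 were listed here, all lower in AngII AAA, with a median log2 fold change of -2.13. They included *Tcap* (14.1 and 93.1 FPKM), *Actn2* (2.24 and 11.0 FPKM), an actin crosslinker of the Z disc, and *Pygm* (6.45 and 28.9 FPKM), the glycogen phosphorylase of muscle. The 12 genes listed in both comparisons with Saline were 38.7% of the 31 and 80.0% of the 15. Of all listed rows, 235 were shared by these comparisons, out of 564 for AngII No AAA and 715 for AngII AAA, so the overlap is a description. The remaining 3 were *Casq1*, *Jph2*, and *Myom1*. *Casq1*, a calcium buffer of the store, was at 1.55 FPKM in AngII AAA against 11.7 FPKM in Saline, and *Jph2*, which ties the store to the cell membrane, at 8.59 and 43.6 FPKM. *Myom1*, a protein of the M band, was at 10.5 and 35.3 FPKM.

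AngII AAA vs. AngII No AAA sets aortas with a lesion against those without one, both under AngII but for different lengths of time. None of the 7 genes was listed, against 600 listed rows, of which 21.0% were lower in AngII AAA, including 6.33% of all rows that were lower by at least 4-fold. From the comparisons with Saline, both AngII libraries could be placed on a common scale for 6 genes. As a share of Saline, *Myh1* was at 22.8% in AngII AAA against 13.3% in AngII No AAA, *Ckm* at 23.3% and 13.9%, and *Atp2a1* at 24.0% and 17.5%. The other 3 had the opposite order: *Myl1* was at 21.0% and 34.1%, *Cacna1s* at 23.1% and 31.3%, and *Myh4* at 17.3% and 19.9%.

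The 6 genes were thus within 17.3% to 24.0% of Saline in AngII AAA but spread from 13.3% to 34.1% in AngII No AAA. Over the 12 skeletal muscle genes listed in both comparisons with Saline, the ranges were closer, 15.2% to 30.3% in AngII AAA and 13.3% to 37.3% in AngII No AAA. *Casq1*, *Jph2*, and *Myom1* also had values in every library, through the lists that hold AngII AAA, and were left out of these ranges. In AngII No AAA they were at 8.84, 31.6, and 28.1 FPKM (direct comparison). In Saline they were at 11.7, 43.6, and 35.3 FPKM (AngII AAA vs. Saline). The AngII AAA values of these lists are 0.968-fold apart, so the 3 genes stood nearer to Saline in AngII No AAA than any of the 12. The lists also differ in reach, as AngII AAA vs. Saline holds no difference under 2.93-fold and AngII No AAA vs. Saline none under 1.91-fold, so higher shares of Saline could not be seen in AngII AAA. Being listed in both comparisons thus kept the shares of the 12 genes low in either library. For the 6 genes, the log2 difference between the AngII libraries ran from -0.70 for *Myl1* to 0.77 for *Myh1*. The largest of these, 1.71-fold for *Myh1*, was under the smallest finite difference that the direct comparison lists, 2.30-fold. Scaling the AngII No AAA values through that library instead of through Saline moved each log2 difference by 0.045 and left the order of every one of the 6 genes as it was. Without replicates, no order of the AngII libraries can be told from variation between pools.

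**Figure D5:**
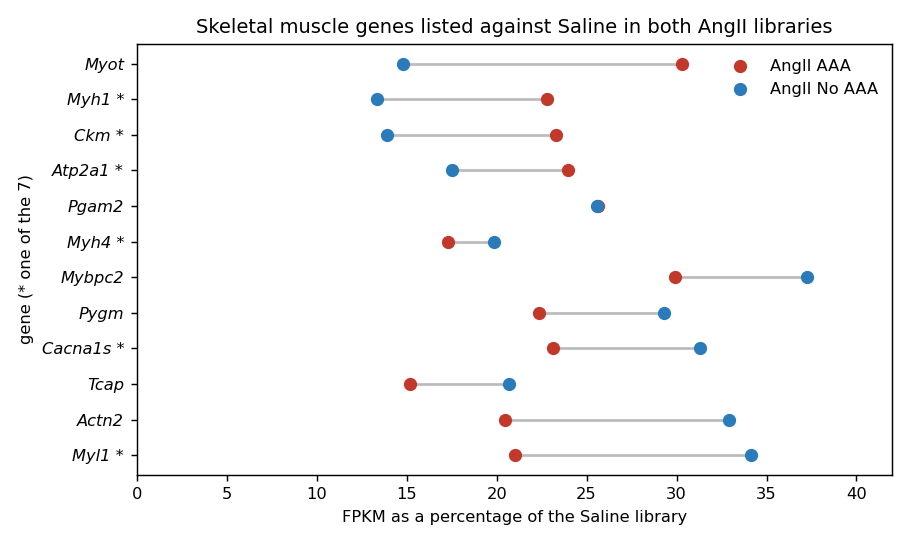
FPKM of the AngII libraries, with and without AAA, as a percentage of Saline, for the 12 skeletal muscle genes listed against Saline in both, ordered by the ratio of the AngII libraries. Both libraries are below 38% of Saline for every gene shown, but only genes listed as different from Saline in both comparisons are shown, so low shares follow from the lists. *Casq1*, *Jph2*, and *Myom1* are therefore not shown. The order of the libraries differs among genes, and the 2 points of *Pgam2* overlap.

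The direct comparison listed 4 other genes of the skeletal muscle lists, all lower in AngII AAA: *Casq1* (1.504 and 8.84 FPKM), *Jph2* (8.32 and 31.6 FPKM), *Myh3* (1.41 and 4.22 FPKM), the embryonic heavy chain, and *Myom1* (10.2 and 28.1 FPKM). The cells that their RNA came from were not tested. All 4 were absent from the AngII No AAA vs. Saline list, with which this list of 600 rows shared only 102 rows above 0 in AngII No AAA. Of smooth muscle markers, 9 of 18 were listed in this comparison, all lower in AngII AAA, with a median log2 fold change of -1.67. The AngII No AAA vs. Saline list, which holds no finite difference under 1.91-fold, held 0 of 18. The AngII AAA vs. Saline list held 4 of 18 (*Itga8*, *Lmod1*, *Synpo2*, and *Kcnmb1*), each also listed between the AngII libraries. All 4 were further below Saline than below AngII No AAA, by 3.33-fold and 3.10-fold for *Kcnmb1* and by 5.48-fold and 3.17-fold for *Synpo2*. AngII No AAA was thus below Saline for these genes too, by less than that list holds. *Acta2*, the smooth muscle actin, was at 304 FPKM in AngII AAA against 926 FPKM in AngII No AAA, and *Myh11*, the smooth muscle heavy chain, at 76.6 and 279 FPKM. *Tagln* and *Cnn1*, which bind actin in smooth muscle, were at 271 and 904 FPKM and at 56.2 and 270 FPKM. The labelled tissue is an artery, and *Acta2* and *Myh11* stood far above *Acta1* (43.8 FPKM) and *Myh1* (7.30 FPKM) in AngII No AAA. These values come from different lists, whose AngII No AAA values are 0.914-fold apart. In Saline, *Acta1* was at 247 FPKM, and no Saline value of *Acta2* or *Myh11* is listed to set beside it. Only AngII No AAA vs. Saline listed genes of the skeletal muscle lists (31 of 94) with none of the smooth muscle list. Genes of both kinds of list were present in the other comparisons. A gene that is not listed may still differ, and the difference between the kinds was not tested.

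Profiles were compared for 225 genes listed in both comparisons with Saline, above 0 in all libraries and at least 1 FPKM in the highest. The profiles nearest to the median of the 6 genes over the 3 libraries, by Euclidean distance on the log2 scale, were those of *Gc* (0.20), *Pgam2* (0.33), *Slc34a1* (0.43), *Tcap* (0.44), *Klk10* (0.49), *Pygm* (0.50), *Inmt* (0.50), *Myot* (0.63), *Actn2* (0.68), and *Mybpc2* (0.71). On the skeletal muscle lists were 6 of these 10, which were all 6 of the skeletal muscle genes other than the 7 that were among the 225. Every skeletal muscle gene listed in both comparisons with Saline was lower in both, so this count follows from the filter and supports nothing. *Casq1*, *Jph2*, and *Myom1*, which have values in every library through other lists, were not among the 225. Only 32 of the 235 genes listed in both comparisons with Saline were highest in Saline, so few profiles could lie near. *Gc*, which encodes the plasma vitamin D binding protein, was at 8.36, 8.92, and 40.7 FPKM in AngII AAA, in AngII No AAA, and in Saline. With 3 libraries such a distance separates few profiles, and the 6 genes themselves lay between 0.22 (*Atp2a1*) and 0.71 (*Myl1*) from their median.

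Markers of other cell types moved between the same libraries. For AngII No AAA vs. Saline, 10 of 12 macrophage markers were higher in AngII No AAA, with a summed level of 728 against 273 FPKM, led by *C1qb*, *Lyz2*, and *C1qc*. Red blood cell genes filled 6 rows, all higher, with a summed level of 1666 against 341 FPKM, led by *Hbb-b2*. Fibroblast markers (3 of 10) were higher as well (640 against 154 FPKM), and of 12 adipocyte markers *Retn* was listed, at 198 against 49.99 FPKM. No neutrophil, adrenal cortex, or heart marker was listed. Summed over the 31 listed skeletal muscle genes, the level was 344 FPKM in AngII No AAA against 1607 FPKM in Saline.

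For AngII AAA vs. Saline, all 12 macrophage markers were higher in AngII AAA (summed level 2706 against 268 FPKM), as were 8 of 12 neutrophil markers (1247 against 55.8 FPKM, with *Stfa2l1* listed at 0 in Saline) and 7 of 10 adrenal cortex markers (464 against 14.8 FPKM). Red blood cell genes (5 rows, 1375 against 229 FPKM) and 2 of 10 fibroblast markers (772 against 108 FPKM) were higher, and no adipocyte marker was listed. Of 11 heart markers only *Tnnt2* was listed, lower at 0.525 against 4.73 FPKM. The 15 listed skeletal muscle genes summed to 145 FPKM in AngII AAA against 667 FPKM in Saline. Between the AngII libraries, where none of the 7 genes was listed, 9 macrophage, 8 neutrophil, and 8 adrenal cortex markers were higher with AAA, while *Fbln1* of the fibroblast list (25.3 against 63.1 FPKM) and *Tnnt2* (0.508 against 7.97 FPKM) were lower, and no adipocyte or red blood cell gene was listed. FPKM is a share of all reads, so fewer muscle fibers in a pool, less muscle RNA per fiber, and more RNA of other cells cannot be told apart here, and the part of these markers in the lower values of the 7 genes was not tested.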

How the data were processed

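RNA of several suprarenal aortas per cohort was pooled into 1 library per cohort (Saline, AngII No AAA, and AngII AAA), and samples were grouped by title. Per the submitters' processing notes, the authors used FastQC, HISAT2, Cufflinks, and Cuffdiff with build mm9 (versions not given in the sources used here). The authors deposited FPKM values of both libraries for each of 3 comparisons, keeping rows with an unadjusted p-value under 0.05, which was checked on the files. The deposited fold changes, test statistics, and adjusted p-values were not used.

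Log2 fold changes were recomputed from FPKM without a pseudocount. A difference of at least 4-fold was counted, with no test, since each cohort had 1 library. A library's constant between lists was the median ratio over genes listed in both. The genes and gene lists were chosen with earlier results of these data known. Genes named are the 7 genes, up to 4 of highest FPKM and 4 of largest fold per muscle list, the 10 nearest profiles, and up to 3 leading genes of other cell type lists. Calculations were tested on simulated data. Alternatives were other folds (2 and 3), a pseudocount of 1 FPKM, a minimum of 1 FPKM, single-gene rows, and other scalings. Mapped totals per library are not given in the sources used here, so counts were not computed. Python 3.11.15, pandas 2.3.3, numpy 2.4.6, and matplotlib 3.10.9 were used.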

Additional observations from a re-analysis of the deposited data

How the results depend on the processing

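Of 59 recomputed values, 14 moved (medians beyond rounding, counts by over 1.5 times). Of the other 45, 8 were counts for lists with no listed row and could not move. The minimum of 1 FPKM and the single-gene rows removed no listed row of these lists, so values under these settings could not move either. No direction could turn, since every listed row of these lists was lower. With 1 FPKM added to both libraries, the median log2 fold change of the 7 genes was -2.43 for AngII No AAA vs. Saline and -2.05 for AngII AAA vs. Saline. The medians of the skeletal muscle genes were then -1.84 and -2.003 in the same order, and -1.59 when AngII AAA was set against AngII No AAA. Those of the smooth muscle genes were -2.22 in AngII AAA vs. Saline and -1.60 between the AngII libraries. At a fold of at least 2 and of at least 3, 31 and 23 skeletal muscle genes were lower in AngII No AAA than in Saline, instead of 15. Between the AngII libraries, 4 and 2 were lower with AAA instead of 1, and with 1 FPKM added 0. Of smooth muscle genes, 9 and 7 were lower between them instead of 1. The comparison of the AngII libraries lists no finite difference under 2.30-fold. The 4 and 9 counted at 2-fold are therefore all the genes listed, as that filter fixed in advance. Of the 7 genes, 5 were lower by at least 4-fold for AngII No AAA vs. Saline, 7 by at least 2-fold, and 6 by at least 3-fold. For AngII AAA vs. Saline 6 were lower by at least 4-fold, or 4 with 1 FPKM added. AngII No AAA vs. Saline lists no finite difference under 1.91-fold, and its counts at 2-fold, 31 and 7, are all the genes listed. Shares of all rows past 2-fold and 3-fold were not computed, so nothing is read from these counts. The order of the 3 libraries was Saline, AngII AAA, AngII No AAA for 3 of 6 genes, also with no constant divided out and with the scaling through the AngII No AAA library, which was added after seeing the data. Values from the comparison of the AngII libraries could not be used for this order, since none of the 7 genes is listed there, and a list without a listed gene has no median. No paired analysis was possible because each cohort had 1 library, and for the same reason no replicate could be left out. Mapped totals are not given in the sources used here, so the counting error of low values such as those of *Cacna1s* was not computed.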

Other observations

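Beside the muscle genes, 4 other genes were lower by at least 4-fold with a finite ratio in AngII No AAA vs. Saline, named here after their values were seen. *Kap*, an androgen-regulated gene of the kidney proximal tubule, was at 3.73 FPKM in AngII No AAA against 27.5 FPKM in Saline. *Gc* was at 9.75 and 44.5 FPKM, *Kcnd2*, a potassium channel gene, at 1.10 and 4.73 FPKM, and *Acr*, the sperm protease acrosin, at 1.64 and 6.58 FPKM. *Slc34a1*, the phosphate transporter of the kidney proximal tubule and one of the nearest profiles to the muscle genes, was at 2.06 and 8.06 FPKM. In AngII AAA vs. Saline, *Slc34a1* was at 1.42 and 7.37 FPKM, and *Kap* was not listed.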
